A study of Mus musculus with 9 samples.

Results

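The 10 genes described here encode the peroxisome proliferator-activated receptors (Ppara, Ppard, Pparg), the retinoid X receptors that pair with them (Rxra, Rxrg), the oestrogen-related receptors (Esrra, Esrrb, Esrrg) and the PGC-1 coactivators (Ppargc1a, Ppargc1b). They were taken from the authors' gene table by symbol, with 1 probe set each, among 45037 probe sets tested, of which 19760 carry 1 gene symbol. Levels were measured on an Affymetrix mouse array in whole hearts of male FVB mice aged 15 weeks, with 1 array for each of 3 mice per genotype. Wild-type hearts (WT) were compared with hearts expressing a kinase-deficient PFK2 (GlycoLo) and hearts expressing a phosphatase-deficient PFK2 (GlycoHi), PFK2 being the enzyme with a kinase and a phosphatase activity that makes and removes the sugar phosphate that drives glycolysis. Neither the promoter that drives these forms nor the number of founder lines is given in the sources used here. A bulk heart sample cannot tell fewer cells of a type from less RNA per cell.

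PPARs sense fatty acids and bind DNA as pairs with a retinoid X receptor, and they turn on genes for fatty acid uptake, storage and oxidation. ERRs are active without an added ligand, bind an extended AGGTCA half-site and control genes of the citric acid cycle and the respiratory chain. PGC-1 proteins do not bind DNA themselves; they dock on both receptor families and raise the activity of their target genes, and in heart this network is known for setting the capacity for fatty acid oxidation.

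The arrays had median log2 values between 4.76 and 4.80, and any pair correlated at 0.994 to 0.997 across probe sets. Pfkfb1, the gene of the PFK2 isoform known from liver, served as a check of the WT and transgenic labels. It stood at 7.97, 7.74 and 7.95 in WT and at 14.34 to 14.43 in the 6 transgenic hearts. GlycoHi minus GlycoLo was 0.06 ± 0.07 (adjusted p = 0.810). Pfkfb1 therefore cannot check which of the transgenic lines a heart belongs to. All 7 cardiomyocyte markers averaged above 5, the level under which a probe set is called dim, from Ryr2 (4.73 to 5.76 over the 9 arrays) to Actc1 (14.25 to 14.31). All values are log2 values made by the robust multiarray average method (RMA), a difference of 1 being a doubling, and levels are compared between genotypes for 1 gene, never between genes. Errors after a difference are the standard error of limma's model, and a probe set was called at a Benjamini-Hochberg adjusted p under 0.05, where the adjustment took in each of the 45037 probe sets. Nothing says that the 3 mice of a group shared no litter, so p-values measure the spread between these samples.

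Of the 10 genes, Esrrg was the one whose level passed this test: it rose in GlycoHi against both other genotypes. No member was called in GlycoLo against WT, where 0.0155% of all probe sets were called higher and 0.0688% lower, and 2 of the 10 (Ppard and Pparg) had an unadjusted p under 0.05, against 9.48% of all probe sets. In GlycoHi against WT 1 member was called higher and 0 lower, beside 1.08% and 1.00% of all probe sets, and 3 (Ppard, Pparg and Esrrg) had an unadjusted p under 0.05, beside 14.5%. In GlycoHi against GlycoLo 1 member was called higher and 0 lower, beside 0.957% and 0.755%, and Esrrg alone had an unadjusted p under 0.05, beside 12.9%. The F-test over the 3 genotypes called 1 of the 10, Esrrg (adjusted p = 0.0102), and 2.08% of all probe sets. Ppard lay just over the threshold in this F-test (adjusted p = 0.0515). Without GlycoHi replicate 2 the F-test called 0 of the 10. The 3 mice of each genotype did not overlap for 1 member in GlycoLo against WT, 4 in GlycoHi against WT and 3 in GlycoHi against GlycoLo, where 13.2%, 18.2% and 16.8% of all probe sets did not overlap. The median difference of the 10 was 0.05, -0.01 and -0.07 in these comparisons.

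**Figure D1:**
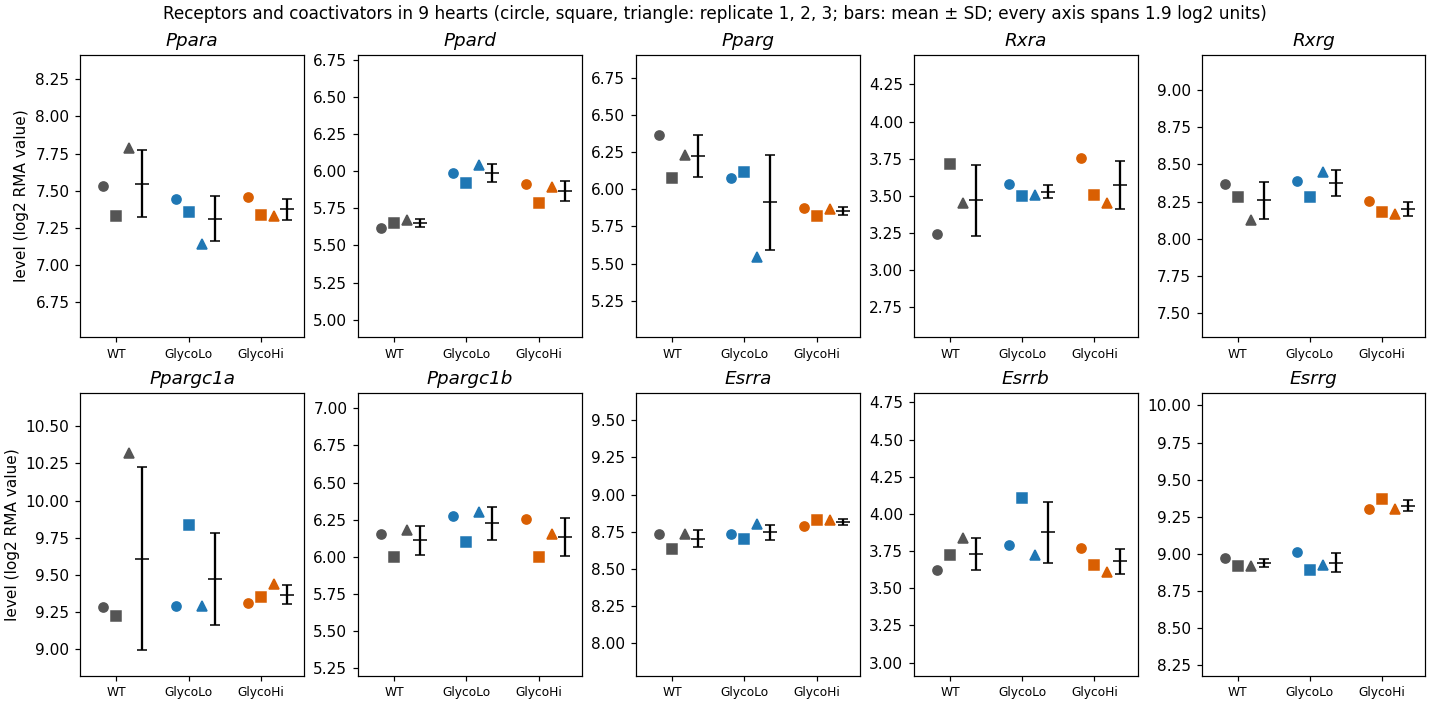
Log2 RMA level (vertical axis) of the 10 genes in WT, GlycoLo and GlycoHi hearts; circle, square and triangle are replicates 1, 2 and 3, bars are mean ± SD, and every axis spans 1.9 log2 units. Esrrg is set apart in GlycoHi (9.30 to 9.37), Ppard is lowest in WT (5.62 to 5.67), and Ppargc1a has 1 high WT heart at 10.32.

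Esrrg encodes the oestrogen-related receptor gamma, an orphan nuclear receptor of tissues with a high oxidative demand. Its level was 8.97, 8.92 and 8.92 in WT, 9.01, 8.89 and 8.92 in GlycoLo and 9.30, 9.37 and 9.30 in GlycoHi. The GlycoHi hearts lay above all 6 others, whereas WT and GlycoLo hearts overlapped. Esrrg rose by 0.39 ± 0.06 in GlycoHi against WT, or 1.31-fold (95% interval of the log2 difference 0.25 to 0.53, adjusted p = 0.00956). The rise against GlycoLo was 0.38 ± 0.06 (0.25 to 0.52, adjusted p = 0.0114). This second difference lost its call when GlycoLo replicate 3 was left out (adjusted p = 0.0503), at a difference of 0.36. GlycoLo and WT differed by 0.00 ± 0.06 (-0.13 to 0.14, adjusted p = 0.989).

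Esrra, the ERR best known as a PGC-1 partner on mitochondrial genes, was at 8.74, 8.64 and 8.74 in WT, at 8.74, 8.70 and 8.80 in GlycoLo and at 8.79, 8.83 and 8.83 in GlycoHi. The GlycoHi hearts did not overlap with WT, but the difference of 0.11 ± 0.06 did not pass the test (-0.03 to 0.25, adjusted p = 0.465). Esrrb, an ERR known from stem cells and the inner ear, was dim: its probe set lay between 3.61 and 4.11 on the 9 arrays. GlycoHi differed from WT for Esrrb by -0.05 ± 0.10 (adjusted p = 0.879), with overlapping groups in every comparison.

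Among the PPARs, Ppara, the receptor that drives fatty acid oxidation genes in heart and liver, was at 7.53, 7.33 and 7.78 in WT, at 7.44, 7.35 and 7.14 in GlycoLo and at 7.46, 7.34 and 7.33 in GlycoHi. All 3 groups overlapped. Ppara differed from WT by -0.23 ± 0.11 in GlycoLo (-0.49 to 0.02, adjusted p = 0.562) and by -0.17 ± 0.11 in GlycoHi (-0.42 to 0.08, adjusted p = 0.547). The interval in GlycoLo reaches well below 0 and does not show that the level was the same.

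Ppard, the PPAR found in most tissues and active in muscle, was lowest in WT at 5.62, 5.65 and 5.67. It stood at 5.99, 5.923 and 6.04 in GlycoLo and at 5.916, 5.79 and 5.89 in GlycoHi. The 3 genotypes thus did not overlap in any pair, though GlycoLo and GlycoHi nearly touched. GlycoLo exceeded WT by 0.34 ± 0.06 (0.19 to 0.48, unadjusted p = 0.000336, adjusted p = 0.112) and GlycoHi exceeded WT by 0.22 ± 0.06 (0.07 to 0.36, adjusted p = 0.136). GlycoHi minus GlycoLo was -0.12 ± 0.06 (adjusted p = 0.486). Ppard was called when probe sets with a mean under 5 were left out of both the model and the adjustment, at an adjusted p of 0.0371 in GlycoLo and 0.0448 in GlycoHi; that setting called 0.74% and 8.31% of the probe sets it tested. A second probe set, listed for Ppard together with 1810013A23Rik and so outside the rule, gave 0.25 ± 0.09 (adjusted p = 0.427) and 0.20 ± 0.09 (adjusted p = 0.362) against WT.

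Pparg, the PPAR that directs fat cell formation, was at 6.36, 6.08 and 6.23 in WT, at 6.08, 6.11 and 5.55 in GlycoLo and at 5.87, 5.82 and 5.87 in GlycoHi. The GlycoHi hearts lay below every WT heart, while GlycoLo overlapped with both, its replicate 3 being the lowest of the 9. Neither difference from WT passed the test, at -0.31 ± 0.14 in GlycoLo (adjusted p = 0.512) and -0.37 ± 0.14 in GlycoHi (-0.67 to -0.07, adjusted p = 0.229). The summed level of 7 white adipocyte markers was also highest in WT, at 9.30 to 10.06, beside 8.94 to 9.24 in GlycoLo and 8.89 to 9.10 in GlycoHi. The single markers were not uniform. In GlycoLo against WT 5 had a negative sign, while Lep (0.15 ± 0.07) and Retn (0.04 ± 0.11) were positive. In GlycoHi against WT 6 were negative and Lep was positive (0.04 ± 0.07). Of these 7, 0 were called in any comparison and 2 (Lep and Cidec) were under the dim level on average. Adiponectin (Adipoq) ranged from 5.63 to 7.78 in WT, 4.77 to 6.32 in GlycoLo and 4.46 to 5.62 in GlycoHi. Their part in the Pparg values was not tested.

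The retinoid X receptors showed no called difference. Rxrg, the form enriched in muscle, was at 8.37, 8.28 and 8.12 in WT, 8.39, 8.28 and 8.45 in GlycoLo and 8.26, 8.18 and 8.17 in GlycoHi. GlycoHi lay below GlycoLo with no overlap, by -0.17 ± 0.08 (-0.35 to 0.00, adjusted p = 0.391). The probe set listed for Rxra, the widely expressed form, was dim at 3.24 to 3.76 over the 9 arrays. Its largest difference was 0.10 ± 0.12, in GlycoHi against WT (adjusted p = 0.754), and at this brightness a difference in Rxra was not measurable with confidence.

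Ppargc1a, the coactivator induced by fasting, exercise and cold, had the largest standard error of the 10 members. It was at 9.28, 9.23 and 10.32 in WT, 9.29, 9.83 and 9.29 in GlycoLo and 9.31, 9.35 and 9.44 in GlycoHi. WT replicate 3 and GlycoLo replicate 2 stood above the other 7 hearts, which spanned 9.23 to 9.44. GlycoLo minus WT was -0.14 ± 0.25 (-0.69 to 0.42, adjusted p = 0.900) and GlycoHi minus WT was -0.24 ± 0.25 (-0.80 to 0.31, adjusted p = 0.725). Without WT replicate 3 these became 0.22 and 0.11, so the sign of both rests on that heart. It was also the heart with the highest Adipoq (7.78) and Ucp1 (6.27), the latter a brown fat gene. GlycoLo replicate 2, the other high heart, had the lowest Adipoq (4.77) and Ucp1 (3.73) of its group. The part of fat tissue in the Ppargc1a levels was not tested. Ppargc1b, the related coactivator, was at 6.15, 5.999 and 6.18 in WT, 6.27, 6.10 and 6.30 in GlycoLo and 6.25, 6.001 and 6.15 in GlycoHi, with overlap throughout and a largest difference of 0.11 ± 0.09 (GlycoLo against WT, adjusted p = 0.720).

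**Figure D2:**
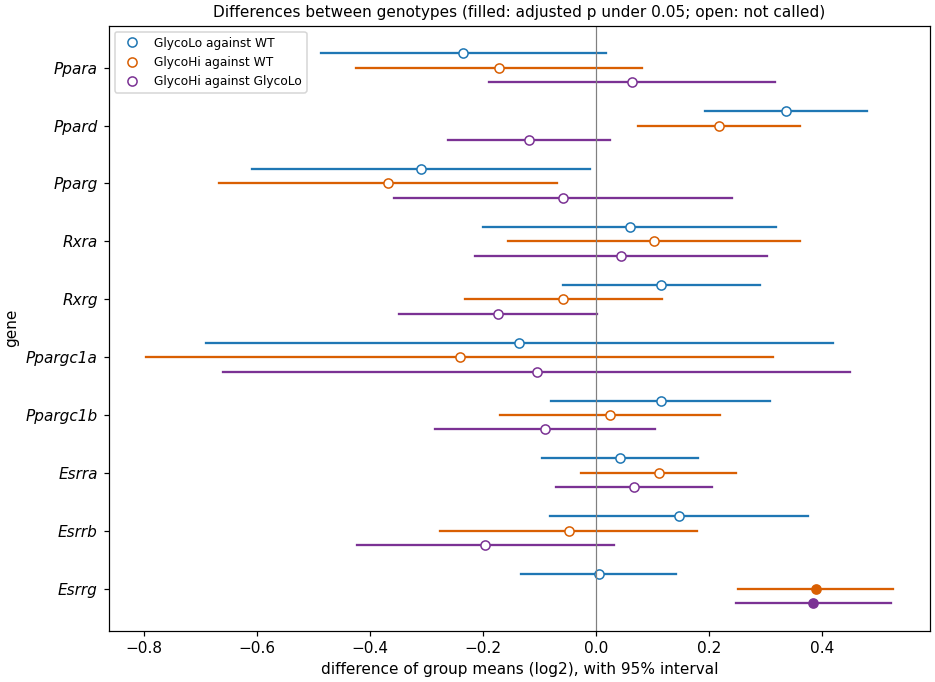
Difference of group means (horizontal axis, log2) with its 95% interval for each gene and comparison; filled points are called at an adjusted p under 0.05. Both GlycoHi comparisons of Esrrg are filled, at 0.39 and 0.38, and the intervals of Ppargc1a are the widest.

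The authors' deposited table gives Esrrg a log2 difference of 0.388 between GlycoHi and WT with an adjusted p-value of 0.009532, and Ppard a difference of 0.336 between GlycoLo and WT with an adjusted p-value of 0.112249.

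Of 36 measured genes known as PPAR targets, 4 fell in GlycoLo hearts against WT, 0 rose and 32 were not called. The median difference of the 36 was -0.34, beside 0.01 over all probe sets, and 35 of them had a negative sign, Ehhadh at 0.10 ± 0.11 being the exception. Some of the 36 probe sets were dim, such as Vnn1 (3.03 in WT), Etfdh (3.27), Acadl (3.41) and Pnpla2 (3.92). They count in the median and the signs although a difference in them was hardly measurable. Fabp3 (5.76 in WT) and Hadhb (6.18) were above the dim level. Whether these probe sets read the main transcript of their gene was not tested. Across all probe sets 0.0688% were called lower in this comparison. The list was drawn up with earlier results of these data known, so its direction is a description. Acot1, a cytosolic thioesterase that splits fatty acyl-CoA, was at 7.02, 6.75 and 6.76 in WT, 5.69, 5.68 and 5.74 in GlycoLo and 6.46, 6.62 and 6.22 in GlycoHi. GlycoLo hearts were lowest and the 3 genotypes did not overlap; Acot1 fell by 1.14 ± 0.11 in GlycoLo (adjusted p = 0.00210). Cidea, a lipid droplet protein, fell by 0.74 ± 0.10 (adjusted p = 0.0200). Ces1d, a carboxylesterase that hydrolyses lipids, fell by 0.70 ± 0.10 (adjusted p = 0.0393), and Decr1, a mitochondrial enzyme needed to oxidise unsaturated fatty acids, fell by 0.58 ± 0.07 (adjusted p = 0.0200). Leaving out any 1 of the 6 arrays compared ended the calls of Ces1d and Decr1, and any of the 3 GlycoLo arrays or WT replicate 1 or 3 ended that of Cidea; the highest adjusted p was 0.179, 0.106 and 0.114, and 1 or 2 of the 36 stayed called. Pdk4, the kinase that switches off pyruvate dehydrogenase, was named after its values were seen: it differed by -0.94 ± 0.33 (adjusted p = 0.388), with overlapping groups.

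In GlycoHi hearts 3 of the 36 PPAR targets fell against WT and 0 rose, beside 1.00% and 1.08% of all probe sets. Their median was -0.07 (0.00 over all probe sets). Ces1d was at 9.40, 9.35 and 9.33 in WT, 8.69, 8.69 and 8.62 in GlycoLo and 6.98, 7.30 and 7.43 in GlycoHi. It stepped down from WT to GlycoLo to GlycoHi with no overlap, and fell by 2.12 ± 0.10 in GlycoHi (adjusted p = 1.74e-06). Retsat, which saturates retinol, fell by 0.63 ± 0.13 (adjusted p = 0.0306). Lpl, the lipase that frees fatty acids from lipoproteins, fell by 0.32 ± 0.07 (adjusted p = 0.0373). Both calls ended without any 1 WT array, without GlycoLo replicate 2 and without GlycoHi replicate 2 or 3, where Ces1d alone stayed called of the 36. The highest adjusted p was 0.113 for Retsat and 0.126 for Lpl. Lpl also lost its call without GlycoLo replicate 1 or 3 and with the arrays centred on a common median. In GlycoLo, Retsat (-0.51 ± 0.13, adjusted p = 0.213) and Lpl (-0.31 ± 0.07, adjusted p = 0.150) also lay below WT with no overlap, uncalled. GlycoHi minus GlycoLo was -0.13 ± 0.13 for Retsat and -0.01 ± 0.07 for Lpl.

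When the transgenic lines were set against each other, 7 of the 36 PPAR targets were higher in GlycoHi than in GlycoLo, 1 was lower and 28 were not called. Across all probe sets 0.957% were called higher and 0.755% lower. The median of the 36 was 0.24 (0.00 over all probe sets), with 30 positive signs. Acot2, the mitochondrial counterpart of Acot1, was at 9.60, 9.64 and 9.93 in WT, 8.75, 9.14 and 8.78 in GlycoLo and 9.84, 9.92 and 10.34 in GlycoHi. Every GlycoLo heart lay below the 6 others, and Acot2 was 1.14 ± 0.15 higher in GlycoHi (adjusted p = 0.00284). Acot1 was 0.73 ± 0.11 higher (adjusted p = 0.00580), Decr1 0.67 ± 0.07 higher (adjusted p = 0.00102) and Ucp2, a mitochondrial carrier, 0.62 ± 0.11 higher (adjusted p = 0.0190). The other 3 that were higher were Plin5 (0.54), Slc25a20 (0.51) and Cpt2 (0.33), named after their values were seen; they coat lipid droplets, carry acylcarnitine into mitochondria and release fatty acid from carnitine inside them. Ces1d was the 1 that was lower, by -1.43 ± 0.10 (adjusted p = 4.58e-05). Without GlycoLo replicate 1 or 3, 5 of the 36 were called and Ucp2 was not (adjusted p up to 0.0784). The comparisons of both lines with WT share the WT arrays. GlycoHi against GlycoLo shares the GlycoLo arrays with GlycoLo against WT, so the signs in both are not independent.

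**Figure D3:**
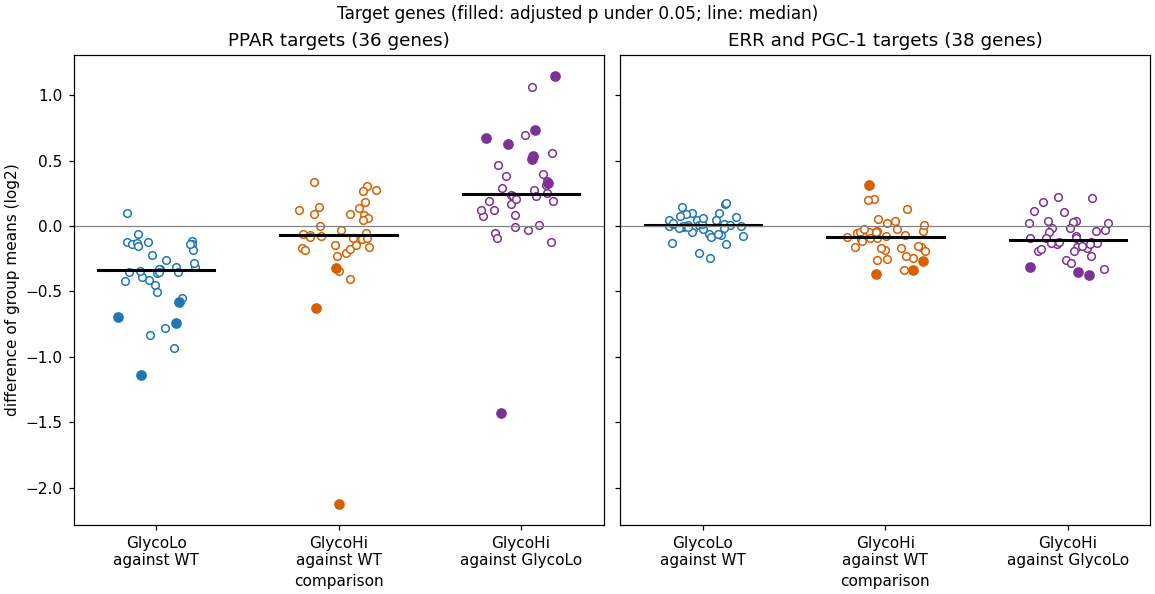
Difference of group means (vertical axis, log2) of 36 PPAR targets (left) and 38 ERR and PGC-1 targets (right) in the 3 comparisons; each point is 1 gene, filled where called at an adjusted p under 0.05, and the black line marks the list's median. PPAR targets lie mostly below 0 in GlycoLo against WT (median -0.34) and mostly above 0 in GlycoHi against GlycoLo (median 0.24).

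Each array's median deviation over the 36 PPAR targets was 0.22, 0.11 and 0.09 in WT, -0.28, -0.17 and -0.17 in GlycoLo and 0.11, 0.01 and 0.08 in GlycoHi. All 3 GlycoLo hearts were thus below every other heart. Ppara was also lowest on average in GlycoLo, with means of 7.55 in WT, 7.31 in GlycoLo and 7.38 in GlycoHi. Its 3 genotypes overlapped, however, and no difference was called. Whether the targets followed Ppara was not tested. The summed level of 5 brown adipocyte markers was 8.69 to 9.10 in WT, 8.09 to 8.29 in GlycoLo and 8.38 to 8.49 in GlycoHi. Cidea, itself counted among the PPAR targets, was the brightest of them and the 1 called in GlycoLo; the other 4 were dim, and Elovl3 differed the other way (0.17 ± 0.13, adjusted p = 0.705). Summed macrophage markers were 11.52 to 11.59 in WT, 11.30 to 11.43 in GlycoLo and 11.33 to 11.59 in GlycoHi. Summed erythroid markers were 8.20 to 8.38 in WT, 7.37 to 8.10 in GlycoLo and 7.46 to 7.94 in GlycoHi. No macrophage or erythroid marker was called in any comparison, and the part of these cell types in the PPAR target levels was not tested. Cidea and Fabp4 belong to the adipocyte lists as well; the other 34 targets had a median of -0.34 in GlycoLo, with 3 called lower and 0 higher.

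**Figure D4:**
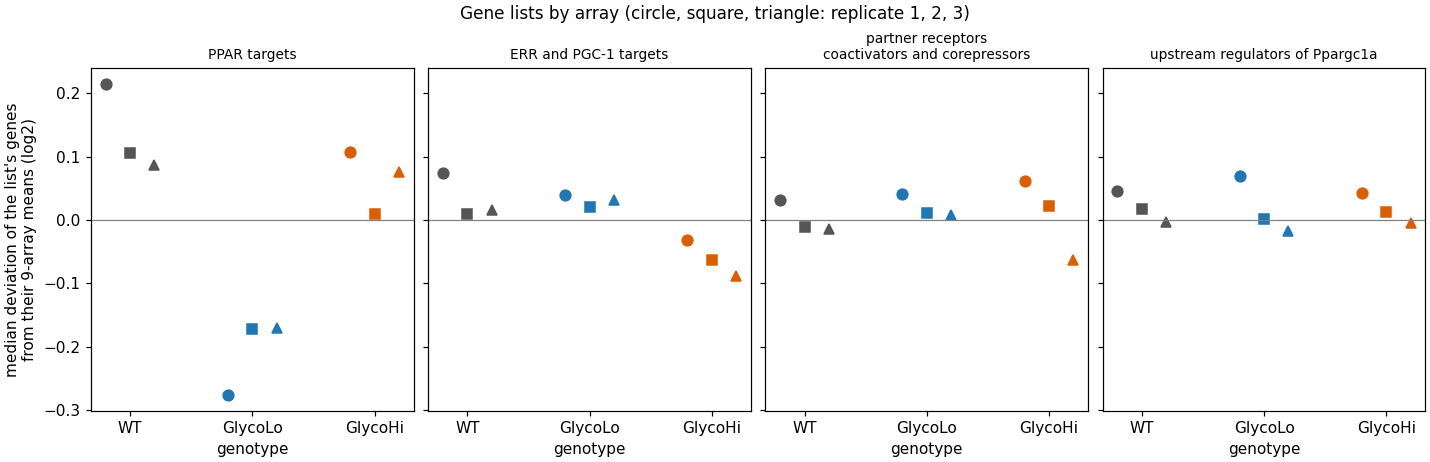
Median deviation of each list's genes from their means over the 9 arrays (vertical axis, log2) in each heart; circle, square and triangle are replicates 1, 2 and 3. PPAR targets are lowest in the 3 GlycoLo hearts (-0.28 to -0.17), and ERR and PGC-1 targets are lowest in the 3 GlycoHi hearts (-0.09 to -0.03).

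Genes known as ERR and PGC-1 targets, mostly of the citric acid cycle and the respiratory chain, included 0 of 38 called in GlycoLo against WT. Their median was 0.00, and 0.0155% of all probe sets were called higher and 0.0688% lower. Some of the 38 probe sets were dim, such as Mdh1 (2.95 in WT), Mfn2 (3.07), Sdha (3.32) and Nrf1 (4.81). They count in the medians although a difference in them was hardly measurable. Mb (5.20 in WT) and Cycs (5.39) lay little above the dim level. Whether such a probe set reads its gene's main transcript was not tested. In GlycoLo against WT the smallest p belonged to Gabpa, a nuclear factor of respiratory genes, at -0.25 ± 0.07 (adjusted p = 0.294). Perm1, a muscle regulator induced by PGC-1, followed at 0.17 ± 0.06 (adjusted p = 0.430). In GlycoHi against WT 3 of 38 fell and 1 rose, with a median of -0.09, where 1.00% of all probe sets were called lower and 1.08% higher and their median was 0.00. Cardiomyocyte markers were mixed beside them, though 6 of 7 had a negative sign (median -0.30). Myh6, the alpha myosin heavy chain, fell by 0.70 ± 0.10 (adjusted p = 0.00444), and Ryr2, the calcium release channel, was at -0.63 ± 0.14 (adjusted p = 0.0508). Nppa (-0.40) and Tnnt2 (-0.30) were not called, and Actc1 (-0.03), Tnni3 (-0.01) and Pln (0.04) differed little. Summed, the 7 markers were 15.91 to 15.99 in WT and 15.80 to 15.93 in GlycoHi, with overlap. All 5 smooth muscle markers had a negative sign (median -0.31), with 0 called. The part of these marker differences in the target genes was not tested. Sdhd, a membrane subunit of succinate dehydrogenase, was at 8.32, 8.17 and 8.27 in WT, 8.24, 8.15 and 8.11 in GlycoLo and 7.94, 7.89 and 7.82 in GlycoHi. It fell by 0.37 ± 0.07 in GlycoHi (adjusted p = 0.0243). Cox7a1, the muscle form of a cytochrome oxidase subunit, fell by 0.34 ± 0.06 (adjusted p = 0.0158), and Sucla2, a subunit of succinyl-CoA ligase, fell by 0.27 ± 0.06 (adjusted p = 0.0473). Cox6a1, another cytochrome oxidase subunit, rose by 0.31 ± 0.07 (adjusted p = 0.0421). These calls did not withstand leaving out 1 array: 0 of the 38 were called without WT replicate 1 or GlycoHi replicate 2, 1 without WT replicate 2, WT replicate 3 or GlycoHi replicate 3, and 2 without GlycoLo replicate 1 or 3. The highest adjusted p was 0.0857 for Sdhd, 0.0676 for Cox7a1, 0.142 for Sucla2 and 0.152 for Cox6a1. The probe sets of Sdhd and Cox6a1 carry the array maker's marks for probes that may match other transcripts. So do those of Ucp2, Plin5 and Slc25a20 among the PPAR targets, and of Aldh18a1 and Hyou1, named below.

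Against GlycoLo, 3 of the 38 ERR and PGC-1 targets were lower in GlycoHi and 0 higher, with a median of -0.11, where 0.755% of all probe sets were lower and 0.957% higher. Myh6 was at -0.47 ± 0.10 (adjusted p = 0.0421) and Ryr2 at -0.55 ± 0.14 (adjusted p = 0.0942). The 7 cardiomyocyte markers had a median of -0.04, with 5 negative and 2 positive signs. All 5 smooth muscle markers (median -0.28) and all 6 endothelial markers (median -0.15) were negative, with 0 called. Of 6 macrophage markers 5 were positive. The part of these marker differences in the target genes was not tested. Cs, citrate synthase, was at 11.12, 11.11 and 11.10 in GlycoLo and at 10.89, 10.64 and 10.67 in GlycoHi, a difference of -0.38 ± 0.08 (adjusted p = 0.0330). Cox7a1 differed by -0.35 ± 0.06 (adjusted p = 0.0148) and Sucla2 by -0.31 ± 0.06 (adjusted p = 0.0248). Of the 38, 0 were called without GlycoLo replicate 3, GlycoHi replicate 2 or GlycoHi replicate 3, and 1 without GlycoLo replicate 1 or 2; the highest adjusted p was 0.131 for Cs, 0.0634 for Cox7a1 and 0.0912 for Sucla2.

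Promoter windows of 300 bases, from 250 before to 50 after each start, were read from RefSeq (GRCm38.p6) for 9 of the 10 members and searched on both strands. The core half-site AGGTCA was in 4 of the members' 17 windows (Pparg, Rxra and Rxrg) and in 16.3% of all 32851 windows. Its ERR extension TNAAGGTCA, which contains the core, was in 0 of the 17 and in 1.28% of all; a direct repeat of the core with 1 base between, the form bound by PPAR and RXR pairs, was in 0 and in 0.0396%. Of the 37 windows of ERR and PGC-1 targets, 6 held the core and 1, that of Sdhd, the ERR extension, beside 16.3% and 1.28% of all windows. The core was in 8 of 29 windows of PPAR targets. For the lists described below, it was in 5 of 32 windows of partners and 3 of 25 of upstream regulators. The 3 windows printed here belong to genes that fell in GlycoHi against WT and hold the core. They are not all such windows, since Mef2c, named below, also fell there and holds the core. Capitals mark the motif. The Sdhd window lies at chr9:50603800-50604099 on the minus strand, with the extended ERR half-site read on the opposite strand. The Sucla2 window lies at chr14:73552536-73552835 on the plus strand and that of Lpin1 at chr12:16610917-16611216 on the minus strand.
Sdhd: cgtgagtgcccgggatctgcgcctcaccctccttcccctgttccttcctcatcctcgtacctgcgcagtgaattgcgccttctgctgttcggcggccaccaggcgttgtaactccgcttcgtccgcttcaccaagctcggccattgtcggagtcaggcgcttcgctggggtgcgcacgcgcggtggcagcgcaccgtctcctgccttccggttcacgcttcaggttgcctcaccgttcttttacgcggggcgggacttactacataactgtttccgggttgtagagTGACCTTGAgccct
Sucla2: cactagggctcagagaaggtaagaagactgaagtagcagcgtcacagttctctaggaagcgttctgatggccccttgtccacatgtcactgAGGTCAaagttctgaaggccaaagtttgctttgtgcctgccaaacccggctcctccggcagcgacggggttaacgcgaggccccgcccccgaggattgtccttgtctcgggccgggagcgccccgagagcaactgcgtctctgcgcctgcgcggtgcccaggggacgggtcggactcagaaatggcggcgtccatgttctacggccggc
Lpin1: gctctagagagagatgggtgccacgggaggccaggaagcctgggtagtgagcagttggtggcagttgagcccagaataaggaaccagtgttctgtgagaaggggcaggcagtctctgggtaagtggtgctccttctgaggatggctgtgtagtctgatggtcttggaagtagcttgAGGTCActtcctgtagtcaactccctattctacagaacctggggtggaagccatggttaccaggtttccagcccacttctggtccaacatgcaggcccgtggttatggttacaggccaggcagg
A match is a string of letters in this window and was not tested for binding.

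Among 30 partner receptors, coactivators and corepressors, 1 was called, lower in both GlycoHi comparisons. Of all probe sets, 1.00% were called lower in GlycoHi against WT and 0.755% against GlycoLo. Lpin1, a phosphatidate phosphatase that also acts with PGC-1 and PPAR alpha on fatty acid oxidation genes, was at 9.33, 9.39 and 9.42 in WT, 9.39, 9.30 and 9.39 in GlycoLo and 8.90, 8.98 and 8.96 in GlycoHi. The GlycoHi hearts lay below all 6 others. Lpin1 fell by 0.43 ± 0.06 against WT (adjusted p = 0.00549) and was -0.41 ± 0.06 relative to GlycoLo (adjusted p = 0.00726). The list's median was 0.00, 0.01 and -0.03 in the 3 comparisons. In GlycoLo against WT the smallest p-values belonged to Sirt1, a deacetylase of PGC-1 alpha, at -0.27 ± 0.10 (adjusted p = 0.410) and Ncoa1, a receptor coactivator, at 0.20 ± 0.07 (adjusted p = 0.426).

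Of 24 regulators known to act upstream of Ppargc1a, 2 fell and 1 rose in GlycoHi against WT, beside 1.00% and 1.08% of all probe sets, while Ppargc1a itself was not called. Sik1, a kinase that restrains CREB coactivators, was at 7.74, 7.83 and 8.13 in WT, 7.50, 7.29 and 7.54 in GlycoLo and 6.85, 7.05 and 7.003 in GlycoHi. The 3 genotypes did not overlap, and Sik1 fell by 0.94 ± 0.11 in GlycoHi (adjusted p = 0.00147). Mef2c, a muscle transcription factor, fell by 0.46 ± 0.09 (adjusted p = 0.0301) and Prkaa2, a catalytic subunit of AMP-activated kinase, rose by 0.45 ± 0.09 (adjusted p = 0.0329). Sik1 alone stayed called without WT replicate 1 or 2 or any 1 GlycoHi array, with adjusted p up to 0.104 for Mef2c and 0.120 for Prkaa2. Prkaa2 was at 8.84, 8.74 and 8.77 in WT, 9.42, 9.15 and 9.19 in GlycoLo and 9.18, 9.39 and 9.12 in GlycoHi. In GlycoLo it exceeded WT by a like amount, 0.47 ± 0.09, without passing the test (adjusted p = 0.114), and Sik1 was -0.46 ± 0.11 (adjusted p = 0.189). Between the lines 0 of 24 were called, beside 0.957% of all probe sets higher and 0.755% lower in GlycoHi. Foxo3, a fasting-responsive factor, was closest at 0.39 ± 0.09 (adjusted p = 0.0553) and Sik1 next at -0.48 ± 0.11 (adjusted p = 0.0614). The list's median was -0.07, 0.00 and 0.04 in the 3 comparisons, beside 0.01, 0.00 and 0.00 over all probe sets.

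Genes with patterns most like a member's were sought over the 9 arrays among 6422 probe sets with 1 symbol and a mean of at least 6; the correlations describe these arrays, whose genotypes they share. Esrrg was most like Inadl (r = 0.991), a cell polarity scaffold, Tars (0.985), the threonyl-tRNA synthetase, and Aldh18a1 (0.983), an enzyme of proline synthesis. It was most opposite to Axl (-0.977), a receptor tyrosine kinase, Hopx (-0.976), a cardiac homeodomain protein, and Fh1 (-0.973), fumarase. In GlycoHi against WT, Aldh18a1 rose by 1.66 ± 0.07 (adjusted p = 9.03e-07), Inadl rose by 0.75 ± 0.08 (adjusted p = 0.000608) and Hopx fell by 0.78 ± 0.06 (adjusted p = 7.42e-05). With the 2 GlycoHi arrays farthest from the median left out, the 6 correlations ran from 0.966 to 0.984 and from -0.950 to -0.955. GlycoHi replicate 3 stayed in, where Esrrg was at 9.30 beside 8.89 to 9.01 in the 6 WT and GlycoLo hearts. That 1 array can set such values alone, so they cannot show a likeness within genotypes. Spearman's rank correlations over the 9 arrays were 0.75 to 0.98 and -0.73 to -0.70.

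**Figure D5:**
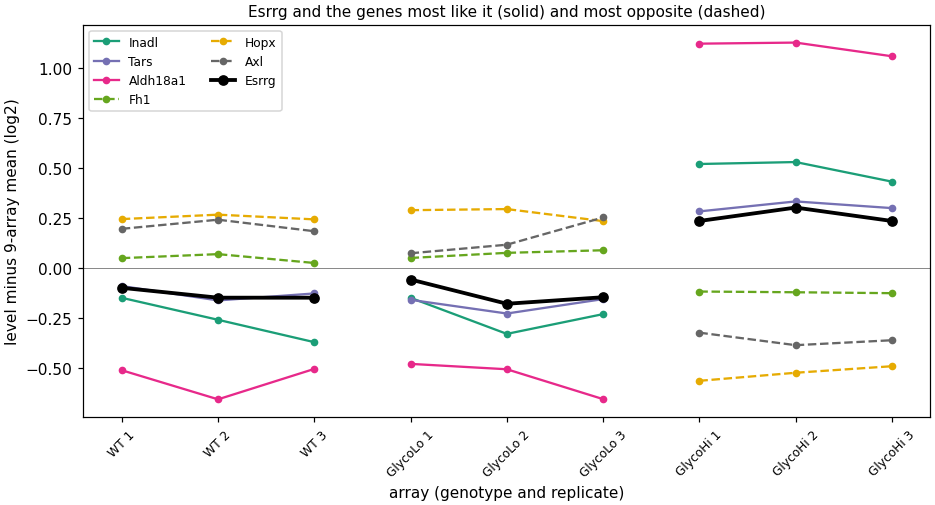
Level minus the mean over 9 arrays (vertical axis, log2) of Esrrg (black), the 3 genes most like it (solid) and the 3 most opposite (dashed) on each array (horizontal axis); lines join the arrays of 1 genotype for legibility. Esrrg and the 3 like genes stand highest, and the 3 opposite genes lowest, in the GlycoHi hearts.

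For the other members the correlations are Pearson's r as well. Esrra was most like 0610010K14Rik (0.964), Psmd14 (0.947), a proteasome subunit, and Tubg1 (0.943), gamma tubulin, and most opposite to Ltbp4 (-0.952), a matrix protein, Ankrd1 (-0.907), a cardiac stress protein, and Atp2a2 (-0.895), the calcium pump of the sarcoplasmic reticulum. Without WT replicate 2 and GlycoHi replicate 3 these ran from 0.882 to 0.974 and from -0.931 to -0.779. Ppara was most like Tbc1d32 (0.934), Capn2 (0.906), a calpain, and Hyou1 (0.901), a chaperone, and most opposite to Krt222 (-0.945), Exd2 (-0.924) and Mark2 (-0.920), a kinase. Without WT replicate 3 and GlycoLo replicate 3 the Ppara values ran from 0.353 to 0.795 and from -0.742 to -0.235. Ppargc1a was most like Zfp691 (0.945), Ms4a15 (0.895) and Rassf7 (0.879), and most opposite to Tcf25 (-0.936), Taf11 (-0.935) and Dact1 (-0.933). These 6 rested on 2 hearts: without WT replicate 3 and GlycoLo replicate 2 the first 3 ran from -0.266 to 0.384 and the last 3 from -0.369 to -0.176.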

How the data were processed

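Hearts were profiled on an Affymetrix mouse array with 3 mice per genotype, and 9 arrays in all. The log2 values were deposited by the authors as RMA summaries, per the file headers; limma and RMA are named, without versions, in the submitters' processing notes, and its background and scaling settings are not stated there. The authors' deposited table also holds log2 differences with p-values and adjusted p-values. The 2 tables' levels differed by at most 8.9e-16.

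All else was computed here. Of 45101 probe sets, 64 controls were dropped. One model with the 3 genotypes was fitted with limma 3.58.1 in R 4.3.3 to the 45037 others (6 residual and 4.66 prior degrees of freedom), and p-values were adjusted by Benjamini-Hochberg within each comparison over all of them. The test statistic is two-sided. For a single gene with groups of 3, the smallest p of an exact permutation test is 0.1. The number of arrays limits the precision: when log2 changes were simulated between GlycoHi and WT among 45037 probe sets, the test recovered 8% of 50 changes of size 0.25, 70% at 0.5 and 100% at 1, with 8 false calls. No member's difference exceeded 0.39 in size.

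The members and gene lists were chosen with earlier results of these data known. Named genes are the 10 members, up to 5 called genes of each list and comparison by size (or, with none called, the 2 with the smallest p), the 3 genes most like and most opposite to Ppara, Ppargc1a, Esrra and Esrrg, Pfkfb1, and markers that moved with a member. Markers of a cell type were summed on the linear scale and the sum is given as log2. Of the listed PPAR targets, Cpt1b and Fgf21 matched no row with 1 symbol; nor did Atp5o, Slc25a3 or Atf2 of the other lists. No label ties a replicate number to a litter or day; deviations of same-numbered arrays correlated at -0.01 to 0.12, over 0.1 in 2 of 9 pairs, so the numbers were not taken as pairs. Alternatives covered the replicate block, the 6 arrays compared, dim probe sets, centring, cyclic loess, an offset, the variance prior, array weights, the threshold and each array left out. Plots used Python 3.11.15, with pandas 2.3.3 and matplotlib 3.10.9.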

Additional observations from a re-analysis of the deposited data

Results flagged for a closer look

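These genes are given because GlycoHi and GlycoLo hearts differed from each other in the model's own test of that difference. Esrrg was 0.38 higher in GlycoHi. Among PPAR targets, Acot2 was 1.14, Acot1 0.73, Decr1 0.67 and Ucp2 0.62 higher in GlycoHi, and Ces1d was lower at -1.43. Among ERR and PGC-1 targets, Cs was at -0.38, Cox7a1 at -0.35 and Sucla2 at -0.31, and the coactivator Lpin1 was at -0.41, all as GlycoHi minus GlycoLo on the log2 scale.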

How the results depend on the processing

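Esrrg in GlycoHi against WT and Lpin1 in both GlycoHi comparisons kept their direction and their calls under each of the alternatives run, as far as each applied. A model and adjustment over probe sets with a mean of at least 5 called 1, 2 and 2 of the 10 members in GlycoLo against WT, GlycoHi against WT and the F-test; the offset of 50 gave 1, 2 and 2 as well, and the member added in both lines against WT was Ppard. Calls over all probe sets also grew, from 0.0844% and 2.08% in these lines to 0.74% and 8.31% without dim probe sets and 0.298% and 3.6% with the offset. The F-test also called 2 under cyclic loess, the trended and robust variance, array weights and an adjusted p under 0.1. At an adjusted p under 0.1 the second member was Ppard. Called PPAR targets in GlycoLo against WT numbered 10 without dim probe sets, 8 with the offset, 12 with the trended variance, 7 at an adjusted p under 0.1 and 2 with the 6 arrays compared; in GlycoHi against WT they numbered 5 without dim probe sets, 6 with the trended variance and 1 with the 6 arrays. ERR and PGC-1 targets in GlycoHi against WT numbered 7 without dim probe sets, 14 with the offset, 13 with the trended variance and 1 with the 6 arrays, and against GlycoLo 5, 11, 13 and 1, with 5 at an adjusted p under 0.1. Upstream regulators numbered 1 in GlycoLo against WT without dim probe sets and with the trended variance, and 3, 1, 4 and 3 in GlycoHi against GlycoLo without dim probe sets, with the offset, with the trended variance and at an adjusted p under 0.1. The offset, which shrinks differences by construction, moved 3 medians, to 0.18 for PPAR targets and -0.082 for ERR and PGC-1 targets in GlycoHi against GlycoLo and to -0.034 for upstream regulators in GlycoLo against WT. Apart from fewer probe sets or arrays, the cause of these moves was not tested. Esrrg in GlycoLo against WT was -0.0057 under cyclic loess.

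The replicate number as a block, which no label ties to a litter or day, called 2 and 1 PPAR targets in GlycoLo and GlycoHi against WT, 2 ERR and PGC-1 targets in GlycoHi against WT, 2 partners in each GlycoHi comparison and 1 upstream regulator in GlycoHi against GlycoLo.

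With 1 array left out at a time, the members called ranged from 0 to 1 in GlycoHi against GlycoLo and in the F-test. PPAR targets called ranged from 1 to 5, 1 to 3 and 5 to 10 in the 3 comparisons, ERR and PGC-1 targets from 0 to 3 in GlycoHi against WT and 0 to 2 against GlycoLo, and upstream regulators from 1 to 3 and 0 to 1 in the same pair. Medians ranged from 0.23 to 0.31 for PPAR targets, -0.041 to 0.015 for partners and -0.0083 to 0.071 for upstream regulators in GlycoHi against GlycoLo, and -0.088 to -0.019 for upstream regulators in GlycoLo against WT. Signs of small, uncalled differences turned in these ranges: in GlycoHi against GlycoLo from -0.022 to 0.13 for Ppara, -0.24 to 0.042 for Pparg, -0.048 to 0.10 for Rxra and -0.20 to 0.075 for Ppargc1a; in GlycoHi against WT from -0.011 to 0.23 for Rxra, -0.43 to 0.11 for Ppargc1a, -0.034 to 0.091 for Ppargc1b and -0.10 to 0.0046 for Esrrb; in GlycoLo against WT from -0.055 to 0.18 for Rxra, -0.33 to 0.22 for Ppargc1a and -0.030 to 0.030 for Esrrg. Brightness limits Rxra and Esrrb, whose probe sets stayed under a mean of 5.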
